A study of Mus musculus with 27 samples.

Results

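The genes described here are the members of 8 mouse solute carrier families whose proteins move amino acids and small peptides across membranes: Slc1a, Slc3a, Slc6a, Slc7a, Slc15a, Slc36a, Slc38a and Slc43a. They were chosen by symbol, without pseudogenes and antisense genes. A gene was kept if the authors' deposited expression matrix of proximal or distal colon listed it, or if its mean level reached 0.5 CPM, the count scaled to library size, in any of 4 groups. Of 68 genes with such symbols and counted transcripts, 51 were kept, out of 35975 genes measured. The matrices listed 44 of them, the other 7 entered by their level, and 17 genes lay below both limits. The members comprise 5 Slc1a, 2 Slc3a, 13 Slc6a, 14 Slc7a, 4 Slc15a, 3 Slc36a, 7 Slc38a and 3 Slc43a genes.

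Absorptive cells of the gut take up amino acids and peptides at the apical brush border and release amino acids at the basolateral membrane. Apical uptake is driven by sodium, potassium or proton gradients, or by exchange, and the cystine carrier is a complex of a heavy chain, Slc3a1, and a light chain, Slc7a9. Basolateral exchangers use another heavy chain, Slc3a2, with light chains of the Slc7a family, while Slc43a carriers work without one. Peptidases anchored in the brush border, such as Anpep, cut peptides into substrates for these carriers. The brush border of small-intestinal enterocytes is known for high levels of the absorptive set. Other members take up neurotransmitters, taurine or creatine, sit in lysosomes, or are known targets of Atf4, the transcription factor of the amino acid response.

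The series profiled poly(A) RNA from short pieces of whole colon of 14 mice of mixed background, in 27 libraries. Foxa1 and Foxa2 are forkhead transcription factors, and the deficient mice were labelled Villin1-Cre; Foxa1lox/lox; Foxa2lox/lox, so that recombination depends on a driver expressed in intestinal epithelium. There were 7 libraries each of control and deficient proximal colon, 6 of distal colon from the same control mice and 7 from the same deficient mice. Every control mouse carried loxP-flanked alleles too: 5 were Foxa1lox/lox; Foxa2lox/lox without Cre, mouse 1 was Villin1-Cre; Foxa1lox/wt; Foxa2lox/wt, and mouse 6 was Villin1-Cre; Foxa1lox/lox; Foxa2lox/wt. Control mice were all labelled male and were 9 to 18 months old, 3 of them 18 months. Deficient mice were 9 to 13 months old and 2 of them, mice 5 and 7, were labelled female. In whole tissue, fewer cells of a type and less RNA per cell cannot be told apart.

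Control mouse 6 stood apart from the other controls in Foxa1, and deficient mouse 3 from its sex label, and both are called doubted below. The label of control mouse 6 has Villin1-Cre with Foxa1lox/lox, so low Foxa1 is no conflict with it. Foxa1 was at 50.9 to 69.4 CPM in 6 proximal control libraries and at 10.1 to 14.5 CPM in proximal deficient libraries, but at 13.9 CPM in control mouse 6, which was also low in distal colon at 7.60 CPM. Foxa2 separated the groups in both segments, at 6.05 to 15.7 against 1.23 to 1.76 CPM in proximal and 15.5 to 30.4 against 0.326 to 1.37 CPM in distal colon. Deficient mouse 3, labelled male, had the Y-linked gene Ddx3y at no more than 0.617 CPM, while all other libraries labelled male had 33.4 to 76.0 CPM. Among proximal libraries, that of deficient mouse 3 had the highest summed Paneth cell markers (65.8 CPM), while distal control mouse 5 had 91.8 CPM. Results are given below with and without these mice. Libraries held 18472867 to 56744113 estimated counts. Markers of colon epithelium were present in every group, with summed levels of 10190 CPM or more in every library.

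Upstream sequences are shown for 4 members that the results turn on. They include the heavy chain Slc3a1, which rose in both segments, and the peptide carrier Slc15a1, which rose in proximal colon. The others are Slc6a14, called lower in distal colon alone, and Slc36a4, which fell in both segments. Each line is the 250 bases before the RefSeq start on GRCm38.p6, read 5′ to 3′ on the gene's strand. Capitals mark a match to one of the motifs searched, and lines without capitals hold none of them.
Slc3a1, chr17:85028097-85028346, plus strand: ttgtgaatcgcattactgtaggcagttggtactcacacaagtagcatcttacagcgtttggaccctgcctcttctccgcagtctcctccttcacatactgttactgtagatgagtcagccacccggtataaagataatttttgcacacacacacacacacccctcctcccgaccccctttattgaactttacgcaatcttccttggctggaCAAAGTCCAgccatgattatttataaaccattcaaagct
Slc15a1, chr14:121505255-121505504, minus strand: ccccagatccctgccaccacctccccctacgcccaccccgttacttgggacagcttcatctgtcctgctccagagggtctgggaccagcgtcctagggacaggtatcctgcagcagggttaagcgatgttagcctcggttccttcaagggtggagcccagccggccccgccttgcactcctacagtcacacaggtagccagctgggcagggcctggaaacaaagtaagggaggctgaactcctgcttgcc
Slc6a14, chrX:21714650-21714899, plus strand: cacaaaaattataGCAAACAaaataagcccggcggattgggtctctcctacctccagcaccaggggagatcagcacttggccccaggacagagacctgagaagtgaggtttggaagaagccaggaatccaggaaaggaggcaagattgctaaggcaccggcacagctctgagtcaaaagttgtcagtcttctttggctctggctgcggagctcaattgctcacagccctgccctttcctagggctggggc
Slc36a4, chr9:15709488-15709737, plus strand: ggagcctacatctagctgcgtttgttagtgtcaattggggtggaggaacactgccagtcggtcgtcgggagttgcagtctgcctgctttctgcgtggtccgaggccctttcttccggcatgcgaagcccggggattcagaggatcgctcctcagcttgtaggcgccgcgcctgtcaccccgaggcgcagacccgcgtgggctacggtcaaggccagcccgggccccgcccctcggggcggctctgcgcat

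RefSeq windows of 300 bases, 250 before and 50 after a start, were matched to 36 members (48 windows) and searched on both strands. A forkhead motif, TGTTTAC or TGTTTGC, was found for 3 members, Slc6a14, Slc7a1 and Slc7a11, beside 8.48% of all 32851 windows. The Slc6a14 match begins 237 bases before the start and reads as the reverse complement of TGTTTGC. The Hnf4 motif CAAAGTCCA was found for Slc3a1 alone, 39 bases before its start, beside 0.475% of all windows. The Atf4 motif TGATGNAA was found for Slc1a4, Slc7a7 and Slc7a11, beside 3.97% of all windows. An Hnf1 motif was found for 0 members and in 0.00913% of all windows. These are matches of letters in one window and say nothing of binding.

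In proximal colon, deficient mice differed from control mice for 22 of the 51 members, 11 higher and 11 lower. A call is an adjusted p (Benjamini-Hochberg) under 0.05 in the edgeR quasi-likelihood test over all 16787 genes tested, of which 11.7% were called (5.52% higher and 6.17% lower). A list of apical brush border carriers held 6 of the 11 increases and 2 of the 11 decreases, Slc1a5 and Slc36a1. Lists of Atf4 targets and of lysosomal members held 7 of the decreases, these same 2 included, since a gene can be on more than 1 list. The median log2 fold change of the members was -0.16, beside 0.01 over all genes, and the median size without sign was 0.51 beside 0.15. Groups did not overlap for 11 members, with 8 higher and 3 lower in every deficient library, where 4.81% of all genes separated in this way. Slc7a15 is among the increases and among these 8, though it was kept as a member only through its level in proximal deficient colon. Without control mouse 6 there were 24 calls (13 higher, 11 lower), without deficient mouse 3 there were 19 (10 and 9), and without both mice 20 (12 and 8).

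**Figure D1:**
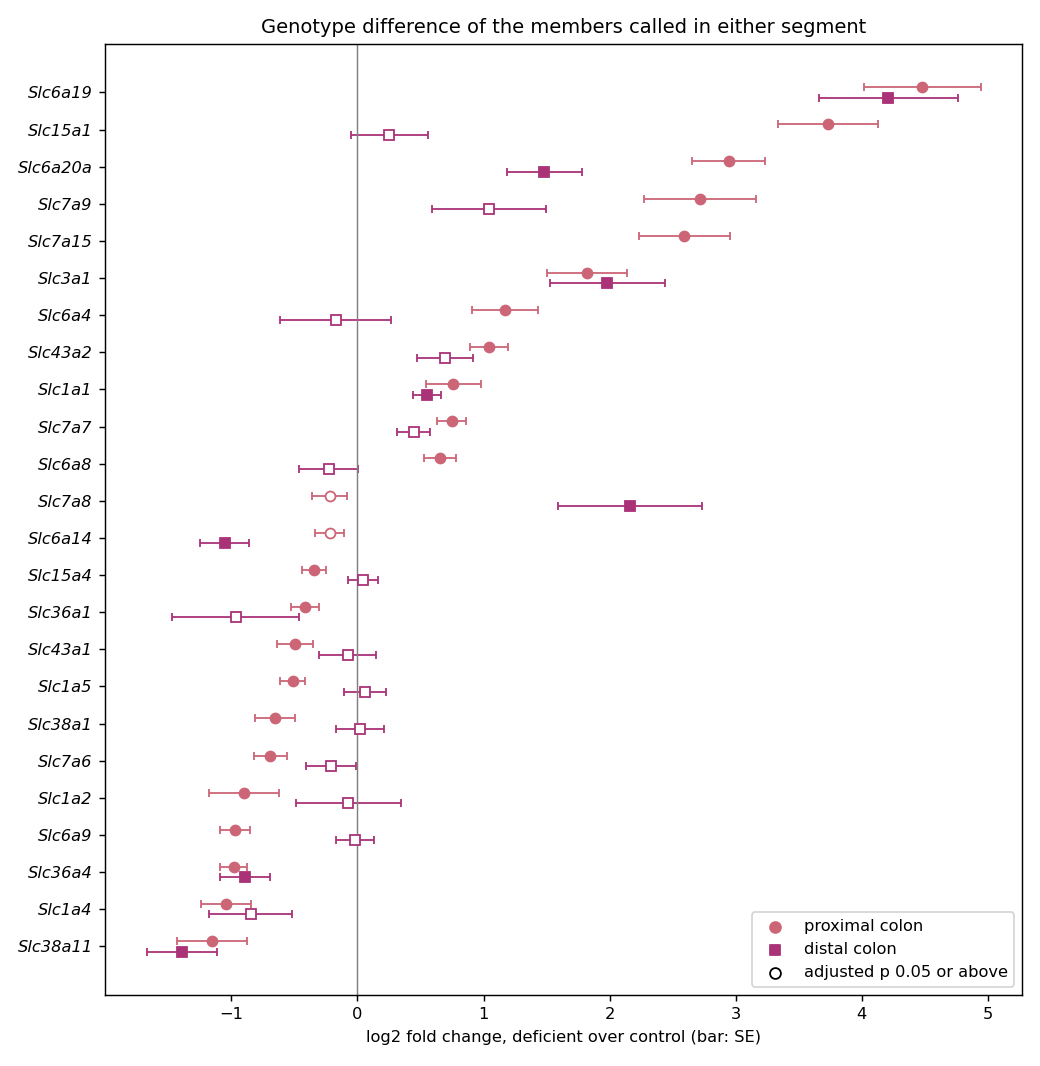
Log2 fold change (deficient against control) with its standard error (bars) for the 24 members called in at least 1 segment, with circles for proximal and squares for distal colon and filled symbols for calls. Slc6a19 lies above 4 in both segments, Slc15a1 lies far above 0 in proximal colon and near 0 in distal colon, and Slc36a4 and Slc38a11 lie below 0 in both.

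Of the apical list of 11 genes, 10 were tested in proximal colon, and 6 rose and 2 fell, with a median log2 fold change of 1.29. Slc6a19, the sodium-coupled carrier of neutral amino acids (GRCm38 chromosome 13, from 73679745 to 73704865 on the minus strand), ranged from 1.18 to 4.74 CPM in control libraries (median 1.49). It was at 9.57 to 82.2 CPM in deficient libraries (median 46.1), so the groups did not overlap, and the highest control was mouse 6. Its log2 fold change was 4.48 (SE 0.46, adjusted p = 8.29e-06), and 4.77 without both doubted mice. Its genomic neighbour Slc6a18, 1721 bases away, stayed at no more than 0.151 CPM in proximal libraries and is not a member. Slc6a20a, a carrier of proline and related imino acids, was at 1.17 to 3.75 CPM in control (median 1.37) and 7.21 to 20.2 CPM in deficient libraries (median 14.3). All 7 deficient libraries lay above all control libraries, with a log2 fold change of 2.95 (SE 0.29, adjusted p = 5.28e-06). Its neighbour Slc6a20b, 2204 bases away, did not pass the test (0.42, SE 0.23, adjusted p = 0.311).

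Slc15a1, the proton-coupled carrier of dipeptides and tripeptides, ranged from 1.27 to 3.94 CPM in proximal control libraries (median 1.83). Deficient libraries ranged from 9.17 to 57.1 CPM (median 21.4). The groups were apart, and the lowest deficient libraries were mice 2 and 6, also the lowest for Slc6a19. The log2 fold change was 3.73 (SE 0.40, adjusted p = 1.12e-05). Both chains of the cystine and dibasic amino acid carrier rose. The light chain Slc7a9 was at 3.28 to 31.1 CPM in control (median 6.76) and 34.1 to 90.5 CPM in deficient libraries (median 57.4), and the heavy chain Slc3a1 at 33.5 to 182 CPM (median 56.4) against 195 to 314 CPM (median 244). For both chains the highest control library was mouse 6, and every deficient library lay above it. The log2 fold change of Slc7a9 was 2.71 (SE 0.44, adjusted p = 0.000533), and that of Slc3a1 was 1.82 (SE 0.32, adjusted p = 0.00092). Without control mouse 6 they were 3.40 and 2.25, the former a move of over 1.5 times, and without both doubted mice 3.38 and 2.18.

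Slc1a1, the carrier of glutamate and aspartate, was at 10.6 to 19.1 CPM in proximal control (median 14.3) and 14.7 to 43.6 CPM in deficient libraries (median 19.9). The groups overlapped, with 4 of 7 deficient libraries above the highest control. Its log2 fold change of 0.76 (SE 0.22, adjusted p = 0.0328) lost its call without control mouse 1, 2, 3 or 7 or deficient mouse 3, 4 or 5 (adjusted p = 0.0563 to 0.075). In all it was lost in 11 of 24 alternatives, at log2 fold changes from 0.53 upward. The falling apical members were exchanger and proton-coupled types. Slc1a5, which exchanges glutamine and other neutral amino acids, was at 102 to 139 CPM in control (median 130) and 71.8 to 106 CPM in deficient libraries (median 83.5), and 6 of 7 deficient libraries lay below every control (log2 fold change -0.51, SE 0.10, adjusted p = 0.00209). Slc36a1, the proton-coupled carrier of glycine, alanine and proline, fell by 0.42 (SE 0.11, adjusted p = 0.0192), a call lost in 4 of 24 alternatives (adjusted p up to 0.12), among them without control mouse 2 (adjusted p = 0.0513) and without both doubted mice (adjusted p = 0.0567). Slc6a14, which takes up neutral and basic amino acids, was at 811 to 1092 CPM in control and 658 to 1103 CPM in deficient libraries and did not pass (-0.22, SE 0.11, adjusted p = 0.262), except without deficient mouse 4 (-0.33, adjusted p = 0.0308).

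**Figure D2:**
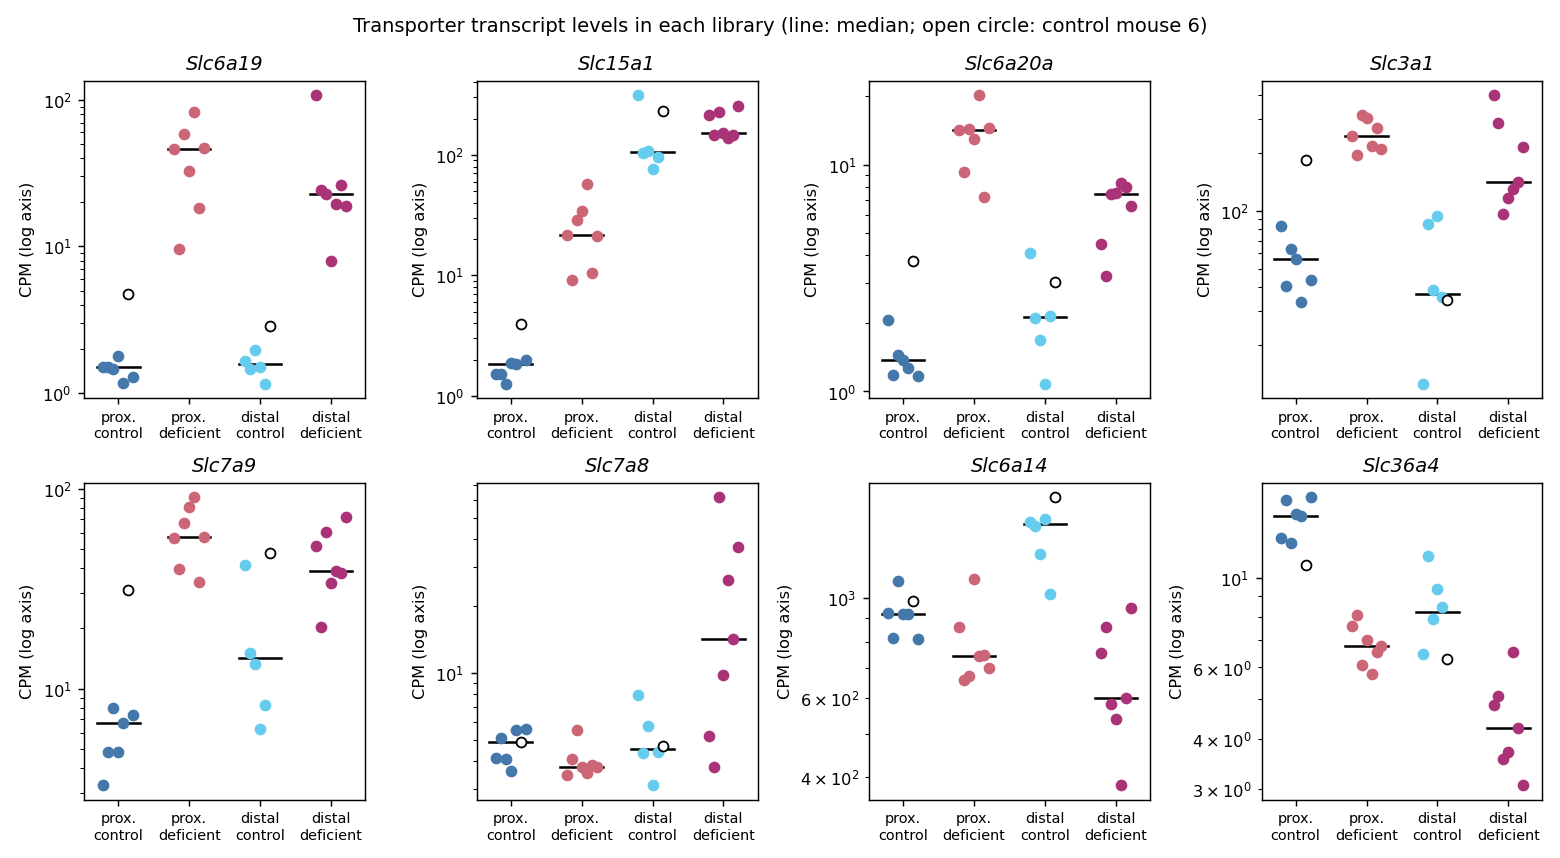
Level of members in every library (CPM, log axis), 1 panel for each of 8 genes, with 1 point per library, open circles for control mouse 6 and a line at the median of each of the 4 groups. In proximal colon the deficient points of Slc6a19, Slc15a1, Slc7a9 and Slc3a1 lie above all control points, and in distal colon those of Slc6a14 lie below them.

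Genes that act with these carriers were counted from a list of 15 brush border peptidases and partners. Of 13 tested in proximal colon, 9 rose and 0 fell (median log2 fold change 0.77). The aminopeptidase Anpep was at 6.04 to 16.8 CPM in control and 113 to 642 CPM in deficient libraries (log2 fold change 5.38, SE 0.40, adjusted p = 4.44e-07). The aminopeptidase Enpep rose by 3.29 and the dipeptidyl peptidase Dpp4 by 1.85 (edgeR adjusted p = 1.98e-05 and 2.32e-05). Cltrn, a partner subunit of Slc6a19, stayed at no more than 0.118 CPM in every library and was not tested. Markers of small-intestinal enterocytes moved with these genes: of 10, 9 could be tested and all 9 rose, and their summed level was 321 to 651 CPM in control and 873 to 2619 CPM in deficient libraries, with no marker near 0. Markers of colon epithelium changed less, with 3 of 8 lower and a summed level of 22410 to 32830 against 19640 to 27690 CPM. The part of these cell markers in the results for the carriers was not tested.

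Basolateral members went both ways. Of 8 listed genes, 7 were tested in proximal colon, and 2 rose and 2 fell (median log2 fold change -0.22). Slc7a7, a light chain that exports basic amino acids, was at 25.3 to 40.7 CPM in control (median 28.6) and 39.8 to 63.5 CPM in deficient libraries (median 48.0). Only the highest control, mouse 6, reached into the deficient range, and the log2 fold change was 0.75 (SE 0.11, adjusted p = 0.000287). Slc43a2, a uniporter of large neutral amino acids, was at 8.37 to 13.5 against 14.7 to 29.6 CPM without overlap (1.04, SE 0.15, adjusted p = 0.00019). Slc7a6, another light chain for basic and neutral amino acids, went the other way, at 9.73 to 14.7 against 5.60 to 9.73 CPM (-0.69, SE 0.13, adjusted p = 0.00178), with every deficient library narrowly below every control. Slc43a1, a relative of Slc43a2, fell by 0.49 (SE 0.14, adjusted p = 0.0306). That call was lost without any 1 of control mice 2, 4, 5 and 6 or deficient mice 3, 4 and 6 (adjusted p = 0.0522 to 0.0664) and without both doubted mice (adjusted p = 0.102), and in 12 of 24 alternatives in all (adjusted p up to 0.145). The heavy chain Slc3a2 was at 49.3 to 65.2 and 45.3 to 56.6 CPM and did not pass (-0.19, SE 0.08, adjusted p = 0.187). The light chains Slc7a5 (-0.63, adjusted p = 0.102) and Slc7a8 (-0.22, adjusted p = 0.396) did not pass in the edgeR test.

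Members known as targets of Atf4 fell where they were called in proximal colon, with 0 of 10 higher and 4 lower, and a median log2 fold change of -0.50. Slc6a9, a glycine carrier, was at 18.0 to 24.4 CPM in control (median 22.5) and 7.59 to 13.9 CPM in deficient libraries (median 10.4). No library of one group reached the other, and the log2 fold change was -0.97 (SE 0.12, adjusted p = 4.27e-05). Slc1a4, a carrier of alanine, serine and cysteine, was at 26.1 to 84.7 CPM in control (median 43.1) and 18.9 to 29.8 CPM in deficient libraries (median 23.3), with 6 of 7 deficient libraries below every control (-1.04, SE 0.20, adjusted p = 0.00206). Slc1a5 and Slc43a1, given above, were the other two, and DESeq2 called 6 of the 10 lower. Slc7a11, the cystine and glutamate exchanger, had a log2 fold change of -0.85 that missed the threshold (edgeR adjusted p = 0.0568). Among 15 further genes of the Atf4 response, 1 rose and 3 fell in proximal colon (median -0.13). The lipoprotein receptor Vldlr fell by 1.10, the asparagine synthetase Asns by 0.54 and the alanyl-tRNA synthetase Aars by 0.32, while Sesn2, an inhibitor of growth signalling, rose by 0.46 (edgeR adjusted p = 0.00156, 0.00534, 0.0399 and 0.0179). Atf4 itself was at 122 to 176 CPM in control and 107 to 165 CPM in deficient libraries.

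Of the carriers of neurotransmitters, taurine, betaine and creatine, 10 were tested in proximal colon, and 2 rose and 2 fell (median log2 fold change -0.20). Slc6a8, the creatine carrier, was at 103 to 142 CPM in control (median 114) and 131 to 260 CPM in deficient libraries (median 168). Apart from 1 deficient library, all lay above the highest control, mouse 6, and the log2 fold change was 0.65 (SE 0.13, adjusted p = 0.00282). Slc6a4, the serotonin carrier, was low, at 0.484 to 1.93 CPM in control and 2.27 to 4.21 CPM in deficient libraries, without overlap (1.17, SE 0.26, adjusted p = 0.00639). Beside it, 2 of 3 markers of serotonin-producing cells fell in proximal colon, among them the synthesis enzyme Tph1 (log2 fold change -5.15, edgeR adjusted p = 3.03e-07). The summed level of the 3 markers was 212 to 595 CPM in control and 185 to 254 CPM in deficient libraries, and their part in the Slc6a4 result was not tested. The glutamate carrier Slc1a2 fell in counts, at 0.695 to 1.47 against 0.225 to 0.953 CPM (-0.90, adjusted p = 0.0448 in edgeR), and was named because it was the remaining called member, after its values were seen. In TPM, which scales for transcript length, its mean did not fall: 0.418 ± 0.132 in control and 0.524 ± 0.363 in deficient libraries (SD). The call is near the threshold and the levels are low.

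Lysosomal and proton-coupled members fell where called in proximal colon, with 3 of 6 lower and 0 higher (median log2 fold change -0.22). Slc36a4, a carrier with high affinity for proline and tryptophan, was at 10.8 to 15.8 CPM in control (median 14.2) and 5.78 to 8.11 CPM in deficient libraries (median 6.77). The groups did not overlap (-0.98, SE 0.11, adjusted p = 1.35e-05). Slc15a4, a lysosomal carrier of histidine and small peptides, fell by 0.35 (SE 0.10, adjusted p = 0.0246), a call lost in 4 of 24 alternatives (adjusted p up to 0.1225), among them without control mouse 5 (adjusted p = 0.0609). Slc36a1, listed here too, is given above. Of members on no role list, Slc7a15, a light chain for aromatic amino acids found in rodents, was at 0.0842 to 0.4217 CPM in control and 0.705 to 2.31 CPM in deficient libraries (log2 fold change 2.59, SE 0.36, adjusted p = 0.000123). Slc7a15 was kept as a member only through its proximal deficient level, so its higher value there is no independent result. Slc38a1, a sodium-coupled glutamine carrier, was at 44.97 to 87.5 CPM in control and 29.9 to 50.6 CPM in deficient libraries (-0.65, SE 0.16, adjusted p = 0.01), with 5 of 7 deficient libraries below every control. The call was lost in 1 of 24 alternatives, with mice of 9 to 13 months (adjusted p = 0.0766). Its neighbour Slc38a2, 44478 bases away and a similar glutamine carrier, did not pass (-0.08, adjusted p = 0.792 in edgeR). Slc38a11, a little studied relative, was at 0.620 to 1.83 against 0.325 to 0.770 CPM (-1.15, SE 0.28, adjusted p = 0.0111).

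In distal colon, of 48 members tested, 5 rose and 3 fell, where 6.07% of all 16041 genes were called (2.7% higher and 3.37% lower). The 5 higher members were Slc6a19, Slc3a1, Slc1a1, Slc6a20a and Slc7a8, and the 3 lower were Slc6a14, Slc38a11 and Slc36a4. Groups did not overlap for 3 members above and 2 below the controls, beside 3.4% of all genes. Of all members, 6 were called in both segments in the same direction, 0 in opposite directions, 16 in proximal colon alone and 2 in distal colon alone. These are counts of calls, and the same counts over all genes were not made. Of all genes 11.7% were called in proximal and 6.07% in distal colon, and 3 members were not tested in distal colon. The difference between segments is tested further below. Without control mouse 6 there were 8 distal calls, and 7 without deficient mouse 3 or without both mice.

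The apical list held 4 of the distal increases and 1 decrease among 10 tested genes (median log2 fold change 0.40). Slc6a19 was at 1.16 to 2.85 CPM in control (median 1.57) and 7.96 to 107 CPM in deficient libraries (median 22.9). All deficient libraries exceeded all controls, and mouse 1 was far above the rest of its group. The log2 fold change was 4.21 (SE 0.55, adjusted p = 0.000347), and 3.52 without deficient mouse 1 (SE 0.30, adjusted p = 2.15e-05), a move of over 1.5 times. Slc3a1 was at 12.7 to 94.2 CPM in control (median 37.1) and 96.4 to 396 CPM in deficient libraries (median 141). The groups came close but did not overlap (1.98, SE 0.46, adjusted p = 0.0169). Slc1a1 was at 42.4 to 56.8 CPM in control (median 49.96) and 60.2 to 93.4 CPM in deficient libraries (median 67.2), with every deficient library above every control (0.55, SE 0.11, adjusted p = 0.00726). Slc6a20a was at 1.08 to 4.07 against 3.22 to 8.30 CPM (1.48, SE 0.30, adjusted p = 0.00762), and 6 of 7 deficient libraries lay above the controls.

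Slc6a14 was the decrease in the distal apical set. It was at 1019 to 1671 CPM in control (median 1458) and 384 to 951 CPM in deficient libraries (median 598). Every deficient library lay below every control, and the log2 fold change was -1.05 (SE 0.19, adjusted p = 0.00441). Of the 8 distal calls, those of Slc6a14 and Slc6a19 alone held under all 23 alternatives run. Slc1a5 (0.06, adjusted p = 0.897) and Slc36a1 (-0.97, adjusted p = 0.335) did not pass in distal colon in the edgeR test.

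The light chain Slc7a9 and the peptide carrier Slc15a1 did not pass in distal colon, with log2 fold changes of 1.05 (SE 0.45, adjusted p = 0.234) and 0.25 (SE 0.31, adjusted p = 0.729). Control mice 1 and 6, which carry Villin1-Cre, had the highest distal levels of both genes among controls: 41.6 and 47.6 CPM of Slc7a9 beside 6.25 to 15.01 CPM in the other 4 mice, and 311 and 232 CPM of Slc15a1 beside 76.4 to 108 CPM. Deficient libraries were at 20.2 to 71.9 CPM of Slc7a9 and 138 to 254 CPM of Slc15a1, all above the control median. With control mice without Cre alone, both genes were called, Slc7a9 at 2.06 (edgeR adjusted p = 0.0042) and Slc15a1 at 0.92 (adjusted p = 0.0137). Whether carrying Cre had a part in this was not tested. Summed small-intestinal enterocyte markers did not separate the distal groups, at 229 to 509 CPM in control, with Lct near 0, and 141 to 527 CPM in deficient libraries, although 4 of 7 tested markers rose. Their part in the distal results was not tested.

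Outside the apical list, 1 basolateral member rose among 7 tested in distal colon (median 0.19). Slc7a8, a light chain for neutral amino acids, was at 3.11 to 7.96 CPM in control (median 4.54) and 3.75 to 61.8 CPM in deficient libraries (median 14.1), with 5 of 7 above every control. Its log2 fold change of 2.16 (SE 0.57, adjusted p = 0.0362) lost its call in 14 of 23 alternatives, with adjusted p = 0.0617 to 0.0823 without any 1 of control mice 2 to 6 or deficient mice 3, 5 and 7. It was 1.67 without deficient mouse 3 and 1.65 without both doubted mice (adjusted p = 0.121). Slc7a7 missed the threshold (0.45, SE 0.13, adjusted p = 0.065) and passed without control mouse 6 (0.52, adjusted p = 0.0301) or deficient mouse 2 (0.52, adjusted p = 0.0167). Slc3a2 did not pass (0.14, adjusted p = 0.696 in edgeR).

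The lysosomal list had 1 decrease and 0 increases among 6 in distal colon (median 0.11). Slc36a4 was at 6.30 to 11.3 CPM in control (median 8.21) and 3.07 to 6.55 CPM in deficient libraries (median 4.26), with 6 of 7 deficient libraries below every control (-0.89, SE 0.20, adjusted p = 0.0139). Slc38a11 was at 0.396 to 0.822 against 0.131 to 0.328 CPM without overlap (-1.39, SE 0.28, adjusted p = 0.00684). The Atf4 target list had 0 calls among 10 genes in edgeR (median 0.02), with 1 gene lower at an unadjusted p under 0.05 and 0 calls in DESeq2. The carriers of neurotransmitters and related solutes had 0 among 11 (median -0.21), with 0 genes at an unadjusted p under 0.05 and 0 calls in DESeq2. Of brush border peptidases and partners, 6 of 13 rose and 0 fell (median 0.50). Enpep rose by 3.21, the gamma-glutamyl enzyme Ggt1 by 3.86, the aminopeptidase Xpnpep2 by 1.32 and Dpp4 by 0.90 (edgeR adjusted p = 5.42e-06, 0.00638, 0.00252 and 0.000623). Of the 15 Atf4 response genes, Sesn2 (0.77) and the transcription factor Cebpb (0.48) rose and Vldlr fell by 0.90 in distal colon (edgeR adjusted p = 0.00512, 0.00834 and 0.0131).

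Whether the effect of genotype differed between segments was tested within the 13 mice that gave both. Of 51 members, 1 had a more positive effect in distal colon and 2 a more negative one, where 1.01% of all 17595 genes were called (0.432% and 0.58% in these directions). The peptide carrier Slc15a1 had an effect smaller in distal than in proximal colon by -3.13 on the log2 scale (SE 0.46, adjusted p = 0.00433), and by -3.18 without both doubted mice. The call held under all 22 alternatives run. The imino acid carrier Slc6a20a differed in the same direction (-1.40, SE 0.31, adjusted p = 0.0465). The glycine carrier Slc6a9 fell in proximal but not in distal colon, where its log2 fold change was -0.02, and the difference was 0.99 (SE 0.20, adjusted p = 0.024). The Slc6a20a call was lost in 16 of 22 alternatives and the Slc6a9 call in 10 of 22, including without both doubted mice (adjusted p = 0.0671 and 0.105). Leaving out control mouse 1, 2 or 5 or deficient mouse 3 or 4 left Slc15a1 alone. Among brush border peptidases and partners, 3 of 14 tested were called, among them Anpep (-4.15) and the scaffold protein Pdzk1 (-5.32), whose effects were smaller in distal colon (edgeR adjusted p = 0.000289 and 0.00771). Pdzk1 was not tested in the genotype comparison of either segment. Its levels were at most 0.0996 CPM in proximal control, 0.144 to 11.2 CPM in proximal deficient and at most 1.21 CPM in distal libraries, so its value rests on few counts. The effects of Slc6a19 (-0.45, adjusted p = 0.825), Slc3a1 (0.11, adjusted p = 0.972), Slc6a14 (-0.82, adjusted p = 0.167) and Slc7a9 (-1.62, adjusted p = 0.158) were not called different between segments in edgeR.

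In control mice, 26 of 50 tested members differed between distal and proximal colon of the same animal, 11 higher and 15 lower distally, where 43.8% of all genes were called (21.5% and 22.3%), so the members' share of 52% was not far from that of all genes. In deficient mice 29 of 51 differed, 13 higher and 16 lower, where 45.1% of all genes were called (22.7% and 22.4%). The comparisons share no library with each other, but each shares its libraries with the genotype comparisons. The effective transcript lengths show that the quantification treated fragment length in another way in distal than in proximal libraries, and that cannot be told apart from segment. Slc15a1 had the largest distal excess in control mice among the members, with distal levels 40.9 to 202 times the proximal ones in 6 of 6 mice (log2 fold change 6.16, SE 0.29, adjusted p = 1.33e-06). In deficient mice the ratio was 2.41 to 15.8 in 7 of 7 mice (3.03, SE 0.33, adjusted p = 9.86e-05). The ranges of this ratio did not overlap between genotypes.

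**Figure D3:**
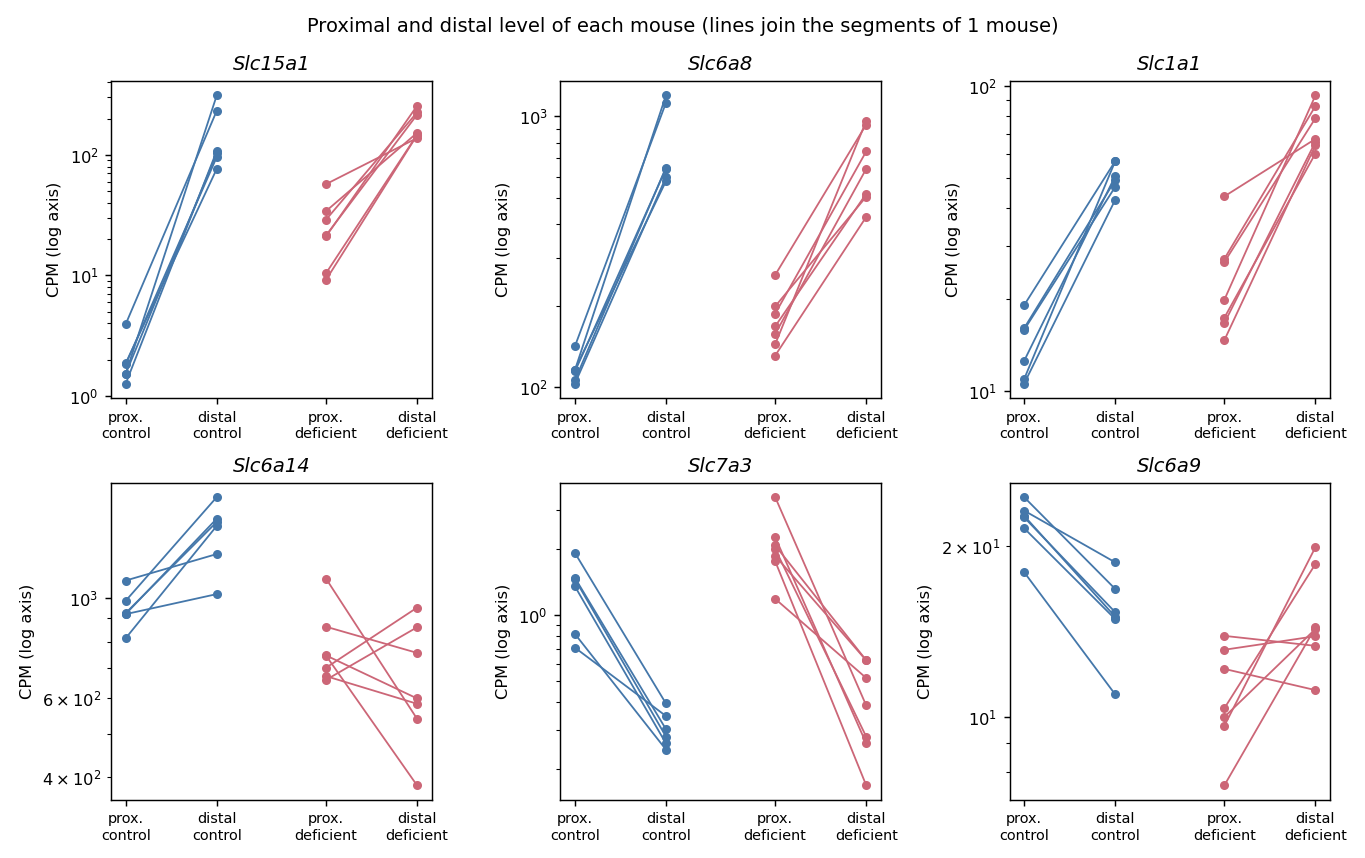
Level of 6 members in proximal and distal colon (CPM, log axis), with 1 line per mouse joining its segments and control and deficient mice drawn apart. Slc15a1 rises steeply from proximal to distal colon in all 6 control mice and less so in all 7 deficient mice, and Slc6a8 rises in every mouse.

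Further members differed between segments, and all differences in this paragraph passed the threshold unless a p-value above it is given. The creatine carrier Slc6a8 was 4.96 to 10.3 times higher distally in control and 2.54 to 6.67 times higher in deficient mice, in every mouse (log2 fold change 2.72 and 1.89, edgeR adjusted p = 3.94e-06 and 2.41e-05). Slc1a1 was 2.95 to 5.18 times and 1.54 to 4.68 times higher distally, again in every mouse (1.86 and 1.71, edgeR adjusted p = 1.01e-05 and 7.81e-05). Slc6a4 and Slc7a11 were also higher distally in both genotypes, by 2.28 and 1.21 for Slc6a4 and by 1.29 and 2.40 for Slc7a11 (control, then deficient). The cationic carrier Slc7a3 was lower distally in every mouse, by -1.99 and -2.34, as was Slc1a4 by -1.25 and -1.27. Slc36a4, the taurine carrier Slc6a6 and the arginine-sensing lysosomal carrier Slc38a9 were lower distally in control mice, by -0.69, -0.95 and -1.22. Slc6a6 and Slc38a9 were lower distally in deficient mice too, by -0.62 and -0.61, each in 7 of 7 mice. The GABA carrier Slc6a11 was also lower distally in control mice by -1.74 and Slc6a20b was higher by 1.34. In deficient mice Slc7a15, kept as a member only through its proximal deficient level, was lower distally by -2.53 and Slc43a2 by -0.80. Counted by mouse, and not by the test, Slc43a2 was lower distally in 6 of 6 control mice as well. In the same count Slc36a4 and Slc6a11 were each lower distally in 6 of 7 deficient mice, and Slc6a20b was higher in 6 of 7. Slc6a14 was higher distally in 6 of 6 control mice (0.55, adjusted p = 0.0105) but in 2 of 7 deficient mice (-0.27, adjusted p = 0.296 in edgeR). Slc7a8 was higher distally in deficient mice by 1.95 (adjusted p = 0.00623) and not called in control mice (0.10, adjusted p = 0.692).

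Slc6a9 was lower distally in 6 of 6 control mice (-0.53, adjusted p = 0.00147) and higher in 5 of 7 deficient mice (0.46, adjusted p = 0.0444 in edgeR). The call in deficient mice is near the threshold, and the test of the difference lost its call in 10 of 22 alternatives. The segment calls of Slc7a9 (1.16, adjusted p = 0.0408), Slc3a2 (0.32, adjusted p = 0.0354) and Slc1a5 (-0.50, adjusted p = 0.0411) in control mice were each lost without control mouse 2 or control mouse 6. That of Slc7a9 was also lost without control mouse 3, that of Slc3a2 without mouse 1 or 5, and that of Slc1a5 without mouse 4 or 5 (adjusted p = 0.0529 to 0.125). In deficient mice Slc3a2 was higher distally in 7 of 7 mice (0.66, SE 0.12, adjusted p = 0.0015). Slc3a1, Slc6a19 and Slc7a7 were not called between segments in either genotype, except Slc7a7 in deficient mice without mouse 7 (-0.22, adjusted p = 0.0445 in edgeR).

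Levels of different genes were compared in TPM, transcript abundances that scale for length. Slc6a14 was the most abundant member in control mice, at 383 ± 22.4 TPM in proximal (SD, n = 7) and 473 ± 75.0 TPM in distal colon (SD, n = 6). In distal deficient libraries it was at 245 ± 72.6 TPM, below Slc6a8 at 300 ± 69.1 TPM, a difference smaller than their spread. Slc38a6 came second in proximal control libraries at 81.0 ± 14.8 TPM, followed by Slc1a5 (72.7 ± 13.5), Slc6a8 (55.7 ± 8.98), Slc3a2 (52.6 ± 6.11), Slc6a6 (51.8 ± 23.4), Slc38a2 (49.0 ± 11.7), Slc3a1 (46.8 ± 34.5), Slc38a10 (44.8 ± 8.57) and Slc7a7 (25.1 ± 4.66 TPM, SD). From Slc6a8 to Slc38a10 neighbours in this order did not differ beyond their spread. In distal control libraries Slc6a8 was second at 330 ± 88.5 TPM, Slc15a1 was at 56.4 ± 30.3 TPM and Slc36a1 at 33.0 ± 29.8 TPM. In proximal deficient libraries Slc3a1 rose to place 2 at 166 ± 27.9 TPM and Slc7a9 to place 5 at 61.0 ± 13.0 TPM, from 10.3 ± 11.8 TPM in control libraries. The mean level of the heavy chain was above that of the light chain in both proximal groups. Slc6a19 was at 15.2 ± 8.18 TPM in proximal deficient libraries and 0.767 ± 0.454 TPM in control libraries. Summed over the members, TPM were 1023 ± 161 and 1174 ± 138 in proximal and 1379 ± 223 and 1303 ± 131 in distal colon (control, then deficient, SD). Genotype differences within a segment were no larger than about the spread between libraries. In control mice the distal mean was above the proximal one by more than either SD, with overlapping ranges (902 to 1376 in proximal and 992 to 1587 in distal libraries).

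**Figure D4:**
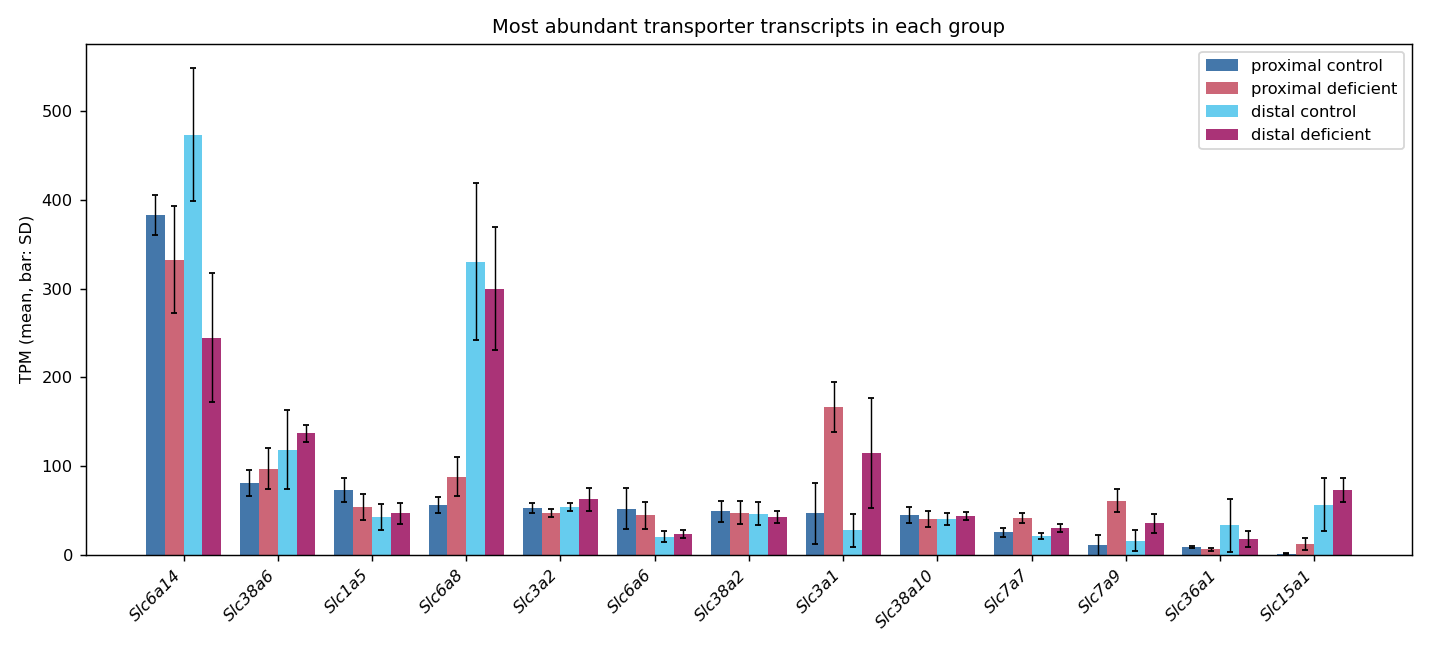
Mean TPM with SD over libraries for the 13 members among the 10 most abundant in at least 1 of the 4 groups, on an axis that starts at 0. Slc6a14 is the tallest bar in both control groups, and Slc6a8 is taller in distal than in proximal colon.

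Reads of some members cannot be assigned to them alone. The share of a transcript's 31-base words found in another gene was 75.0% for the Slc38a6 transcript that held 94.6% to 98.1% of that gene's counts, mostly shared with Noct. Without that transcript the median level of Slc38a6 was 9.38, 10.9, 10.1 and 10.9 CPM in the proximal control and deficient and the distal control and deficient groups, in place of 212, 252, 386 and 425 CPM. Its place in the TPM order and its distal excess (0.76 in both genotypes) are therefore uncertain. Weighted by counts, 25.5% of the words of Slc3a1 were found in at least 1 other gene, the neighbouring gene Prepl among them. Prepl was at 36.1 to 71.0 CPM in proximal control and 46.5 to 67.6 CPM in proximal deficient libraries. Its log2 fold change was 0.51 (edgeR adjusted p = 0.0283), smaller than that of Slc3a1. The same share over all other genes was 40.4% for Slc6a9, with Ccdc24 among them, which was at no more than 1.49 CPM. For Slc1a1 it was 32.5%, with 4430402I18Rik among the other genes, which was at no more than 1.95 CPM. Slc6a20a and Slc6a20b share words with each other, and weighted by counts 28.8% of the words of Slc6a20a and 40.0% of those of Slc6a20b were found in other genes. For Slc7a7 the authors' deposited matrix was lower than the summed counts by 1.55 log2 units in proximal and 2.39 in distal colon, and with limma on that matrix the log2 fold change of Slc7a7 was 1.80 in proximal and 1.46 in distal colon (adjusted p = 0.000125 and 0.00857).

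The genotype comparisons called 27 members in neither segment. Beside those named above they included the cationic carriers Slc7a1 and Slc7a2, the lysosomal Slc38a7, Slc38a9 and Slc15a3, the proline carrier Slc6a7, the glutamate carrier Slc1a3, the GABA carrier Slc6a11, and the neuronal Slc6a15 and Slc6a17. Others were Slc7a4, Slc7a10, Slc7a13, Slc7a14, Slc15a2, Slc36a2, Slc38a10 and Slc43a3. Slc7a10, Slc7a15 and Slc15a2 were too low for the distal test, and Slc7a15 for the segment test in control mice. A p that missed the threshold does not show that these genes were alike in both genotypes.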

How the data were processed

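The submitters' processing notes name bcl2fastq 2.20.0.422, cutadapt 2.5, kallisto 0.46.2 and edgeR (no version given), and the builds GRCm38 and mm10. For every library the authors deposited estimated counts and TPM of 119414 transcripts. For every segment they deposited gene-level log2 CPM values. The scaling of those values and the use of strand in counting are not given in the sources used here, so overlapping and antisense genes cannot be told apart. Effective lengths were 249 bases under the transcript length in distal and 215 to 246 bases under it in proximal libraries.

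Of these transcripts 116728 matched GENCODE M21 genes by identifier, and the other 2686, with 0.9% to 1.27% of a library's counts, were not used. Expected counts were added up by gene and rounded, and the deposited TPM were added up for the order of genes. Each comparison was fitted over all genes with edgeR 4.0.16 (R 4.3.3, filterByExpr, TMM, glmQLFit and glmQLFTest, Benjamini-Hochberg adjusted p under 0.05), with the mouse as a block between segments. That pairing comes from segments of the same animal. Levels are CPM with one TMM scaling over 27 libraries. Alternatives used DESeq2 1.42.0, limma 3.58.1 on the deposited log2 matrix, other filters, offsets and subsets of mice, and the procedures were tested on simulated data.

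The members, role lists, marker lists and the rule for named genes were chosen with earlier results of these data known, so none is independent evidence. Named were 10 fixed members, up to 14 further called members per genotype comparison, up to 10 per segment comparison and up to 8 for the difference between segments by smallest p, the 10 of highest TPM in control mice, and up to 4 called genes per list. Markers of smooth muscle, nerve, macrophage, lymphoid, mast, endothelial, fibroblast and squamous cells were also counted, with results among the other observations. Protein sequences were not used here. The results of 1 member and 1 partner gene are not reported here by name, though both are in the counts.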

Additional observations from a re-analysis of the deposited data

Results flagged for a closer look

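In 104 checks, each of 1 gene in the libraries of 1 group (26 genes: Foxa1, Foxa2 and named members), the highest or lowest library stood far from the others 14 times. The limit used gives about 1 in 20 for independent checks of values with a normal spread. The checks used CPM without a log scale, share libraries, and cover genes mostly named for calls in these data. The count of 14 can therefore not be set against that rate. Control mouse 6 was the library concerned in 8 of the 14, all in proximal colon. In it Foxa1 was at 13.92 CPM where the nearest other control was at 50.9. The same library was the highest control for Slc6a19 (4.738 CPM, nearest 1.798), Slc15a1 (3.944, nearest 1.991), Slc7a9 (31.08, nearest 7.952), Slc3a1 (182.3, nearest 82.85), Slc7a7 (40.71, nearest 31.68), Slc6a20a (3.746, nearest 2.06) and Slc6a8 (141.8 CPM, nearest 116.3). All 7 of these members rose in proximal deficient mice.

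The others were single libraries. Slc6a19 was at 107.1 CPM in distal deficient mouse 1, nearest 26.25. Slc7a8 was at 5.533 CPM in proximal deficient mouse 3, nearest 4.101. Distal control mouse 1 was the highest of its group for Slc36a1 (391 CPM, nearest 146.7), Slc6a4 (21.24, nearest 8.91) and Slc7a15 (0.173 CPM, nearest 0.05789). Proximal control mouse 4 was the lowest for Slc15a4 (17.88 CPM, nearest 23.96).

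The effect of genotype differed between segments, by the test of the difference itself in edgeR, for 3 members: Slc15a1 (-3.126, adjusted p = 0.00433), Slc6a20a (-1.4, adjusted p = 0.0465) and Slc6a9 (0.9948 on the log2 scale, adjusted p = 0.024).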

How the results depend on the processing

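Changes of sign were looked for in 89 named results, and calls outside these, such as that of proximal Slc1a2, were not checked. None of the 89 that was called in the edgeR test changed sign under any alternative. Of the named results that were not called, 8 did: Slc3a1 and Slc7a8 between segments of control mice (-0.60 to 0.31 and 0.10 to -0.07, with controls without Cre), Slc6a19 there (-0.08 to at most 0.13), Slc3a1 (0.11 to as low as -0.80), Slc6a19 (-0.45 to 0.08) and Slc1a1 (-0.14 to 0.04) in the difference between segments, and Slc1a5 in distal colon (0.06 to -0.06) and between segments of deficient mice (0.07 to -0.04). In proximal colon the 22 calls became 16 to 25 under the alternatives, 16 with mice of 9 to 13 months and 18 with mice labelled male, and 18 to 24 with 1 mouse left out, and 14 of 21 named members were called under all 24, with Slc7a15 and Slc38a11 called under the 23 in which they could be tested. In distal colon the 8 calls became 6 to 10, except with the replicate number as a block, which left 2, Slc6a19 and Slc6a14, and gave no weight to deficient mouse 7, which has no partner. Control and deficient mice share only a number: correlations of their deviations were -0.153 to 0.316 in proximal and -0.122 to 0.304 in distal pairs, and 1 of 7 and 1 of 6 correlated best with its own number. In proximal colon the replicate block left 20 calls. Of the 3 differences between segments, DESeq2 called 7 (2 and 5), adding among named members Slc7a9, Slc7a8 and Slc6a14, and 1 remained with mice of 9 to 13 months, with controls without Cre, with mice labelled male and without control mouse 6 and deficient mouse 3 together (the last chosen after seeing the data). With 1 mouse left out there were 1 to 3. The distal Slc3a1 call was lost with the block (adjusted p = 0.0819) and at 9 to 13 months (adjusted p = 0.0952, edgeR). Beside moves given with the results, folds moved by over 1.5 times for proximal Slc7a9 at 9 to 13 months (3.55), proximal Slc3a1 against controls without Cre (2.41), Slc3a1 between segments of control mice and in the difference between segments (both above), Slc7a7 in proximal (1.80) and distal colon (1.46) with limma on the deposited matrix, distal Slc7a8 with the replicate block (1.44), distal Slc6a19 with limma (3.42) and Slc7a11 between segments of deficient mice with a transcript-length offset (1.70). Segment calls were 18 to 27 in control mice, where Slc6a14 lost its call without Cre carriers (adjusted p = 0.0564), and 23 to 30 in deficient mice. Causes were not tested, though subsets hold fewer mice. Members below about 1 CPM rest on few counts, and a missed threshold there does not show likeness.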

Other observations

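Slc15a2, a peptide carrier related to Slc15a1 that is best known from kidney, was near 0 in most libraries but not in control mouse 6. Its levels were 19.8 CPM (proximal) and 5.35 CPM (distal). The medians of the proximal and distal control groups were 0.392 and 0.163 CPM, and no deficient library exceeded 0.982 CPM. The proximal genotype difference of Slc15a2 did not pass the test (-2.22, SE 0.97, edgeR adjusted p = 0.18). Slc15a2 was named for this 1 library, after its values were seen. Slc36a1 was likewise spread in distal colon, at 42.5 to 391 CPM in control and 25.7 to 123 CPM in deficient mice, beside 25.9 to 34.9 and 16.2 to 28.5 CPM in proximal colon. Slc7a8, raised in distal deficient mice, was spread there over 3.75 to 61.8 CPM, while its proximal deficient range was 3.47 to 5.53 CPM.

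Markers of further cell types were counted in the same edgeR genotype comparisons. In proximal colon 0 of 5 smooth muscle, 0 of 7 enteric neuron and glia, 0 of 5 macrophage, 0 of 5 T and B cell, 0 of 3 endothelial, 0 of 2 Paneth and 0 of 1 squamous markers were called, of which 1 macrophage and 2 T and B cell markers had an unadjusted p under 0.05. Mast cell proteases rose in proximal colon, Mcpt1 by 2.58 and Mcpt2 by 2.59, with Cpa3 by 3.15, while the receptor Kit fell by 0.99, and 1 of 3 fibroblast markers, Pdgfra, rose by 0.54. In distal colon 0 of 5 smooth muscle, 0 of 7 neuron and glia, 0 of 5 macrophage, 0 of 5 T and B cell, 0 of 3 endothelial, 0 of 3 fibroblast and 0 of 2 squamous markers were called, with 2, 2, 0, 0, 0, 0 and 1 at an unadjusted p under 0.05. Mcpt1 and Mcpt2 rose there by 2.87 and 2.76. The Paneth marker Itln1 fell by 3.44, the colon markers Car1 and Slc26a3 by 3.57 and 1.30, and Tph1 by 5.30, while the granule protein Chgb rose by 1.65.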
